A study of Mus musculus with 4 samples.

Results

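The transcription factors Gata4, Gata6, Tcf21, Lhx2, Tbx20, Tbx18, Tbx5, Hand2 and Isl1 were compared between the mouse stromal lines OP9M2 and BFC012. These 9 genes, named for their roles in the septum transversum and the cardiac mesoderm of the embryo, were taken from 18193 genes that had a probe set of their own on the Affymetrix mouse expression array, and they held 20 of the 45037 probe sets tested. No probe set named a member together with another gene. OP9M2, described by its labels as a supportive mesenchymal stem cell line, is a clonal derivative of OP9 stroma, while BFC012 is labelled as a non-supportive fibroblast line from fetal liver, and the study compared the lines to define what OP9M2 is and how it supports human blood progenitors. Each line was represented by 2 arrays of total RNA, labelled as biological replicates, with 1 culture plate per RNA sample. All cells had received 2000 rad and were harvested 48 hours after plating, at a density of 25000 per square centimetre, so that no unirradiated cells were measured. The medium held 20% serum for OP9M2 and 10% for BFC012, and each side of the comparison is a single line, so that tissue of origin, clone and serum cannot be told apart here.

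The septum transversum is a sheet of embryonic mesoderm next to the heart into which the liver bud grows, and it gives rise to stellate cells and mesothelium of the liver and, through the proepicardium, to the epicardium. The zinc finger proteins Gata4 and Gata6 bind GATA motifs in heart, liver mesenchyme and endoderm, and the basic helix-loop-helix factors Tcf21 and Hand2 bind E-box motifs, Tcf21 in epicardium and visceral mesenchyme and Hand2 in heart, limb and autonomic neurons. Lhx2 and Isl1 are LIM homeodomain factors, Lhx2 being known in liver stellate cells, limb and forebrain and Isl1 in the second heart field and in motor neurons. Tbx5, Tbx18 and Tbx20 are T-box factors, of which Tbx5 acts in heart and forelimb, Tbx18 in epicardium, sinus horn and ureteric mesenchyme, and Tbx20 in heart muscle and valves.

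The OP9M2 arrays spread more widely than those of BFC012. They were at least 1 log2 unit (2-fold) apart in 2842 probe sets, against 291 for the BFC012 arrays, and a bacterial Dap control read 3.24 log2 units on OP9M2 replicate 2 against 8.67 to 10.5 on the other 3 arrays.

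The 9 factors went in both directions. By limma, 5 of them (Gata4, Gata6, Tcf21, Lhx2 and Tbx20) were lower in OP9M2, 2 (Tbx18 and Isl1) were higher, and Tbx5 and Hand2 were not called. A gene was called at an adjusted p under 0.05 where the lines were 1 log2 unit (2-fold) or more apart, and was represented by its brightest probe set over the 4 arrays. Over all genes, 3.56% were called lower and 2.36% higher, and the median difference was 0.03 log2 units against -2.68 over the 9 factors. The factors had been chosen with earlier results of these arrays known, so their counts against these shares describe the choice as well as the lines. In RNA from whole cultures, fewer cells with a transcript and less of it per cell cannot be told apart.

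Both OP9M2 arrays lay below both BFC012 arrays in the same 5 factors, and above them in Tbx18, Isl1 and Hand2. Such a separation of the lines was common, with 24.8% of all genes separated towards BFC012 and 28.4% towards OP9M2. Values are given as log2 units on each array, and differences as OP9M2 minus BFC012 ± SE (n = 2 arrays per line). The SE is the moderated one of limma, which also draws on the spread of all probe sets. The background level, the 95th percentile of 81 probe sets of odorant, vomeronasal and trace amine receptor genes, was 6.09 log2 units. Where no array of a line was above it, the fold is printed as a lower limit, the mean of the brighter line over the background level. In BFC012, 6 of the factors were above background on both arrays, whereas 3 were in OP9M2 (Gata6, Tbx18 and Isl1).

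**Figure D1:**
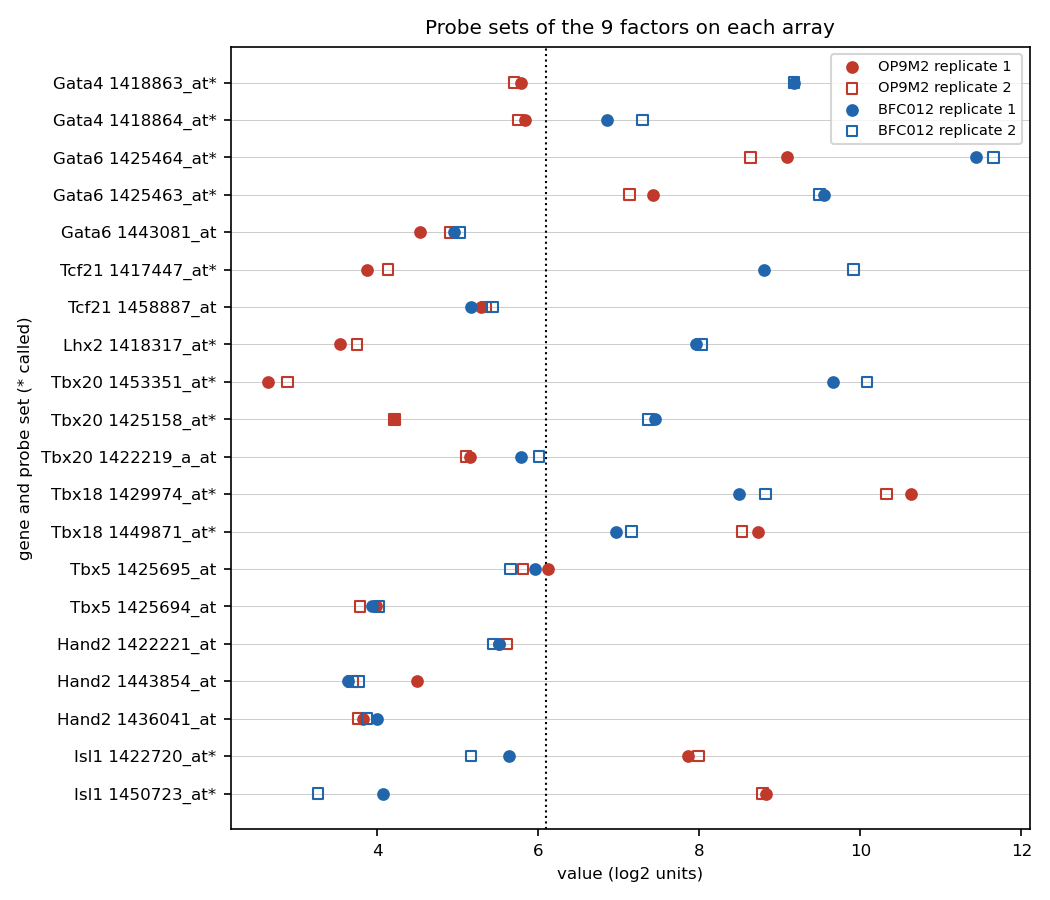
Value of each of the 20 probe sets of the 9 factors (rows, named by gene and probe set, an asterisk marking those called) on the 4 arrays, in log2 units along the horizontal axis. OP9M2 is drawn in red and BFC012 in blue, replicate 1 as filled circles, replicate 2 as open squares, and the dotted line is the background level of 6.09. The OP9M2 arrays of Tbx20, Tcf21, Lhx2 and Gata4 lie left of the dotted line, while the BFC012 arrays of Isl1 do.

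Promoter sequence was available for 6 of the 9 factors in RefSeq windows of the GRCm38.p6 build, and those of Gata4, Gata6 and Tbx5 were not analysed here. The 250 bases before the annotated start are printed, 5′ to 3′ on the strand of the gene, for the T-box factors that differed in opposite directions (Tbx20 and Tbx18), for Isl1, the LIM homeodomain factor higher in OP9M2, and for Tcf21, which differed in the same direction as the GATA factors and whose window holds a GATA motif. Capitals mark matches on either strand. The GATA motif was searched as AGATAA alone, so other sequences around GATA, such as TGATAA in the Isl1 window, are not marked or counted. The E-box of basic helix-loop-helix factors was searched as CANNTG. The T-box site was searched as AGGTGT. The homeodomain core of LIM factors was searched as TAATTA. The Tcf21 window was chr10:22820144-22820393, that of Tbx20 chr9:24774304-24774553, that of Tbx18 chr9:87731261-87731510 and that of Isl1 chr13:116309689-116309938, all on the minus strand.
Tcf21: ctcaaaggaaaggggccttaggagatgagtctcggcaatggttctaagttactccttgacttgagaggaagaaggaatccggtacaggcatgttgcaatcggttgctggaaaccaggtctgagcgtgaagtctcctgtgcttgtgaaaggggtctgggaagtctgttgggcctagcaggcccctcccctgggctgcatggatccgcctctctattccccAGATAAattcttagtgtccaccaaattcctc
Tbx20: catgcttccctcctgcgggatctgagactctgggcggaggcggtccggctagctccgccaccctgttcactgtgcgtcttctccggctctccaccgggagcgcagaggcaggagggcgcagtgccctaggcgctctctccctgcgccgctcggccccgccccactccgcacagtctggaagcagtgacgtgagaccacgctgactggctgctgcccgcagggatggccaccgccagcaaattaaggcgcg
Tbx18: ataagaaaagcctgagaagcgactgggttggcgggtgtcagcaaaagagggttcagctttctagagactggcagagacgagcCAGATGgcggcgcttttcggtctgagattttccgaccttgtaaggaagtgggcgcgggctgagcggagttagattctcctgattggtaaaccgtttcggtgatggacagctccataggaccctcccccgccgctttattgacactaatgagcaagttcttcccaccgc
Isl1: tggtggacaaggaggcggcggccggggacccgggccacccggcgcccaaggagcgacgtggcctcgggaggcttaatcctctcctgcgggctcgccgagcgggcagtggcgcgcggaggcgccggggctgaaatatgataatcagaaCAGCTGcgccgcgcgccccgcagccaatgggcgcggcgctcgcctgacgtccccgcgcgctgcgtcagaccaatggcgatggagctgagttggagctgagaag

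The single match in the Tcf21 window was the GATA motif, beginning 31 bases before the start, and this match was a reason for printing that window. Tbx18 and Isl1 each held 1 E-box, beginning 168 and 103 bases before the start, and Tbx20 held no match to these 4 motifs. Neither of the 2 Lhx2 windows held a match. Hand2 held 2 E-boxes and a homeodomain core whose last letters overlap a GATA motif on the other strand. Of all 32851 windows of this length, 9.99% held the GATA motif, 66.2% the E-box, 11.8% the T-box site and 4.84% the homeodomain core. Binding of any factor to these motifs was not tested. The GC content was 52.4% in Tcf21 and 54.0% in Tbx18, against 68.8% in Tbx20, 71.2% in Isl1 and 52.4% in the median window. The CG dinucleotide occurred 5 times in Tcf21, 15 times in Tbx18, 22 times in Tbx20 and 33 times in Isl1, with a median of 6 over all windows. The 2 Lhx2 windows had a GC content of 72.8% and 68.4%, and that of Hand2 had 49.2%. The printed windows had been chosen partly by the direction of their factors, so GC content cannot be related to direction through them.

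The GATA factors were both lower in OP9M2, but only Gata6 was above background in both lines. Gata6 stood at 9.08 and 8.63 in OP9M2 replicates 1 and 2 and at 11.43 and 11.65 in BFC012 replicates 1 and 2. It differed by -2.68 ± 0.21, which is 6.43-fold (limma adjusted p = 0.00809). A further probe set from the same Gata6 sequence read 7.42 and 7.13 in OP9M2 against 9.54 and 9.49 in BFC012 (-2.24 ± 0.16, adjusted p = 0.00671). The third was not above background on any array (-0.28 ± 0.18, adjusted p = 0.508). OP9M2 thus had Gata6 signal above background at a lower level than BFC012.

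Gata4 read 5.78 and 5.70 in OP9M2, under the background level on both arrays, and 9.18 on each BFC012 array. The difference of -3.44 ± 0.13 was at least 8.48-fold (adjusted p = 0.00180). Its other probe set, designed on the same transcript, also had both OP9M2 arrays under background (5.84 and 5.75) and both BFC012 arrays above it (6.85 and 7.29), with a smaller difference (-1.28 ± 0.20, adjusted p = 0.0448). The replicates of each line differed by at most 0.45 log2 units in either Gata4 probe set.

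Tcf21 had OP9M2 values of 3.87 and 4.13 and BFC012 values of 8.81 and 9.91. The BFC012 replicates were 1.10 log2 units apart, the widest gap between replicates among the representing probe sets of the 9 factors, and the difference of -5.36 ± 0.40 (at least 9.62-fold, adjusted p = 0.00726) was several times that gap. The second Tcf21 probe set lay between 5.16 and 5.43 on all arrays, under background, and was not called (0.02 ± 0.16, adjusted p = 0.974). Hand2, the other basic helix-loop-helix factor, was not above background on any array with any of its 3 probe sets. Its brightest probe set read 5.51 and 5.61 in OP9M2 and 5.51 and 5.44 in BFC012 (0.09 ± 0.13, adjusted p = 0.818), and although the lines were separated there in the digits beyond those printed, the second probe set overlapped (0.39 ± 0.30) and the third pointed the other way (-0.14 ± 0.14).

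The LIM homeodomain factors separated in opposite directions. Lhx2, which had a single probe set, read 3.54 and 3.75 in OP9M2 and 7.96 and 8.03 in BFC012 (-4.35 ± 0.15, at least 3.73-fold, adjusted p = 0.00150). Isl1 read 7.86 and 7.99 in OP9M2 and 5.64 and 5.16 in BFC012 with its brightest probe set (2.53 ± 0.21, at least 3.56-fold, adjusted p = 0.00938). With the other it read 8.83 and 8.78 in OP9M2 and 4.07 and 3.26 in BFC012 (5.14 ± 0.30, at least 6.55-fold, adjusted p = 0.00401). Lhx2 was thus detected above background in BFC012 alone and Isl1 in OP9M2 alone, as measured by these probe sets.

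The T-box factors showed all 3 outcomes. Tbx20 had the largest difference of the 9, with 2.64 and 2.88 in OP9M2 and 9.66 and 10.08 in BFC012 (-7.11 ± 0.21, at least 13.7-fold, adjusted p = 0.00113). A second Tbx20 probe set read 4.21 on both OP9M2 arrays and 7.45 and 7.37 on those of BFC012 (-3.20 ± 0.13, at least 2.49-fold, adjusted p = 0.00195), and the third was under background throughout (-0.77 ± 0.15, adjusted p = 0.0717). Tbx18 was above background in both lines and was higher in OP9M2, at 10.63 and 10.32 against 8.49 and 8.82 (1.82 ± 0.20, 3.54-fold, adjusted p = 0.0191). The other Tbx18 probe set read 8.73 and 8.53 against 6.96 and 7.16 (1.57 ± 0.16, 2.97-fold, adjusted p = 0.0157). Tbx5 read 6.13 and 5.81 in OP9M2 and 5.96 and 5.66 in BFC012, with a single array above background and overlapping lines (0.16 ± 0.19, adjusted p = 0.748). The second Tbx5 probe set lay under background on all arrays, between 3.79 and 4.02 (-0.09 ± 0.15, adjusted p = 0.823).

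**Figure D2:**
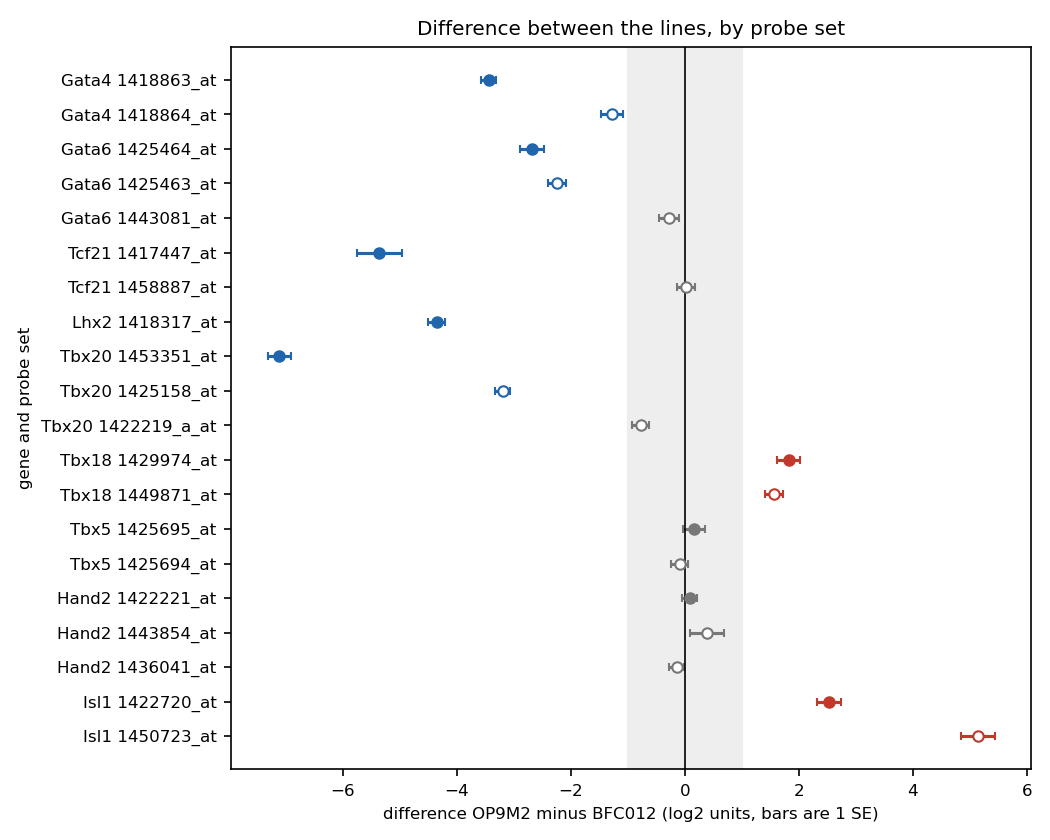
Difference OP9M2 minus BFC012 for each of the 20 probe sets (horizontal axis, log2 units, bars 1 SE), with probe sets called lower in blue, called higher in red and not called in grey; filled symbols represent the gene, and the shaded band is the range within 1 log2 unit of 0. The 8 blue probe sets belong to Gata4, Gata6, Tcf21, Lhx2 and Tbx20 and the 4 red ones to Tbx18 and Isl1.

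By probe set, 8 of the 20 were called lower in OP9M2, 4 were called higher and 8 were not called, and over the whole array 2.66% were called lower and 1.8% higher. No gene of the 9 had probe sets called in both directions. Of the 20, 13 were above background on at least 1 array, and none of the other 7 was called. When all probe sets of a gene were averaged before the fit, the same 7 factors were called, with smaller differences for Tbx20 (-3.69), Tcf21 (-2.67), Gata4 (-2.36), Gata6 (-1.73) and Tbx18 (1.70), a larger one for Isl1 (3.83) and the same one for Lhx2, which has a single probe set. Leaving out either BFC012 array left 0 factors called by limma, with 7 at an unadjusted p under 0.05, while leaving out either OP9M2 array left the same 7 called. With the replicate number as a block, 4 were called (Gata4, Tcf21, Lhx2 and Tbx20).

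The differences kept their direction without OP9M2 replicate 2. Those of the 5 lower factors were then between -7.24 (Tbx20) and -2.46 (Gata6), and those of Isl1 and Tbx18 were 2.46 and 1.98. With a lone OP9M2 array, the residual spread comes from the BFC012 arrays alone. Calls in such a fit cannot show how the wider spread of the OP9M2 arrays bears on them.

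**Figure D3:**
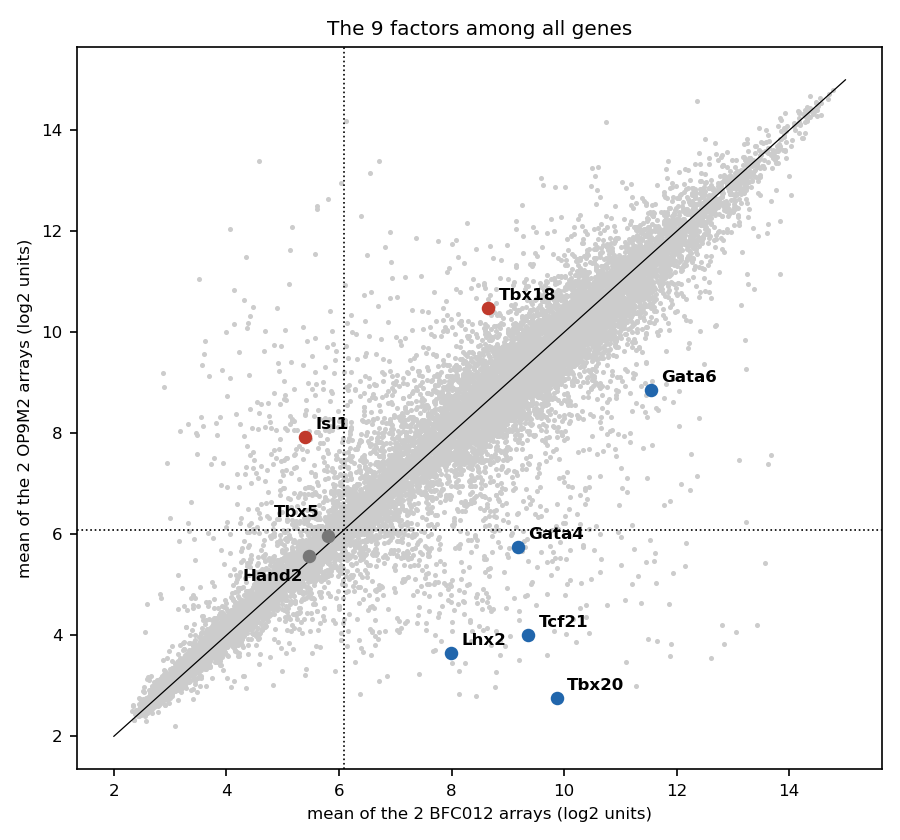
Line means of 18193 genes in grey, each over 2 arrays in log2 units, with OP9M2 on the vertical and BFC012 on the horizontal axis, and the 9 factors in colour as in the plot of differences; the line marks equal values and the dotted lines the background level. Tbx20, at 9.87 in BFC012 and 2.76 in OP9M2, lies farthest from the line among the 9 factors, and Gata6 and Tbx18 are the called factors above background in both lines.

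Relatives of the 9 factors, in the other GATA, T-box, LIM homeobox and Twist-class genes, were mostly not called. The same held for genes in general, of which 3.56% were called lower and 2.36% higher. Of 33 measured, 0 were higher and 2 lower in OP9M2, and 31 were not called, with a median difference of 0.07; 17 were not above background on any array. Gata2, a GATA factor of blood and stroma, read 7.90 and 7.79 in OP9M2 and 9.08 and 8.88 in BFC012 (-1.14 ± 0.15, adjusted p = 0.0296). The other Gata2 probe set was not called (-0.90, adjusted p = 0.053). Tbx3, a T-box repressor, read 4.92 and 4.85 against 6.16 and 6.36 (-1.38 ± 0.15, at least 1.12-fold, adjusted p = 0.0175), and 3 of its 5 probe sets were not called. The brightest that were not called were the mesenchymal factors Twist2 (-0.79 ± 0.15), Twist1 (-0.11 ± 0.17) and Tbx15 (0.11 ± 0.15). Without OP9M2 replicate 2, 1 was higher and 3 lower, and 0 were called with the replicate block.

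Genes for proteins that work with the 9 factors were mostly above background. Like genes in general (3.56% called lower and 2.36% higher), they were mostly not called. Of 30 measured cofactors and partners, 23 were above background on all arrays, and 1 was higher, 2 were lower and 27 were not called (median -0.15). Zfpm1, which encodes the GATA cofactor Fog1, read 6.49 and 6.33 in OP9M2 and 9.04 and 8.94 in BFC012 (-2.58 ± 0.14, 5.99-fold, adjusted p = 0.00377), in the same direction as Gata4 and Gata6. Its other probe set was not called (-1.12 ± 0.24, adjusted p = 0.0919). The related cofactor Zfpm2, chosen after its values were seen, read 8.75 and 9.96 against 10.77 and 10.77 and was not called (-1.42, adjusted p = 0.175). The Groucho corepressor Tle3 was lower (-1.23 ± 0.15, adjusted p = 0.0263), and its other probe sets differed by -1.46 (called), -1.12 and -0.29 (not called). The TALE homeodomain factor Meis2 was higher (11.71 and 11.36 against 10.01 and 10.00, 1.53 ± 0.17, 2.89-fold, adjusted p = 0.0203). All 4 Meis2 probe sets differed by between 1.53 and 1.68, and 3 of them were called. Tcf12 (-0.19 ± 0.16) and Tcf4 (0.15 ± 0.19), class I partners of basic helix-loop-helix factors, and the Yap partner Tead1 (-0.98 ± 0.17, adjusted p = 0.0534) were the brightest not called. Leaving out OP9M2 replicate 1 gave 1 higher and 5 lower, leaving out OP9M2 replicate 2 gave 2 higher and 4 lower, and the replicate block left 1 lower.

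Of 32 signals and receptors of the septum transversum, proepicardium and heart field, 1 was higher, 3 were lower and 28 were not called (median -0.05). Never above background were 13 of the 32, and 13 were above it on all arrays. Aldh1a1, which makes retinoic acid, read 3.65 and 4.75 in OP9M2 and 13.27 and 13.57 in BFC012 (-9.22 ± 0.40, at least 160-fold, adjusted p = 0.00213). Its relative Aldh1a2, named after its values were seen, was not above background on any array. Bmp4, the septum transversum signal to the liver bud, read 10.71 and 11.61 against 13.29 and 13.21 (-2.09 ± 0.33, 4.26-fold, adjusted p = 0.0458). The Wnt agonist Rspo3 was lower (-3.65 ± 0.25, at least 5.15-fold), and its other probe set was not called (-0.42, adjusted p = 0.527). The receptor Fgfr1 was higher (2.24 ± 0.29, 4.73-fold, adjusted p = 0.0283), and its other probe sets differed by 1.10 (called) and 1.89 (not called). The BMP receptors Bmpr1a (-0.62 ± 0.14) and Bmpr2 (-0.12 ± 0.34) and the hedgehog transducer Smo (-0.69 ± 0.30) were not called. The replicate block left 1 lower, and without OP9M2 replicate 2 there were 2 higher and 5 lower.

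**Figure D4:**
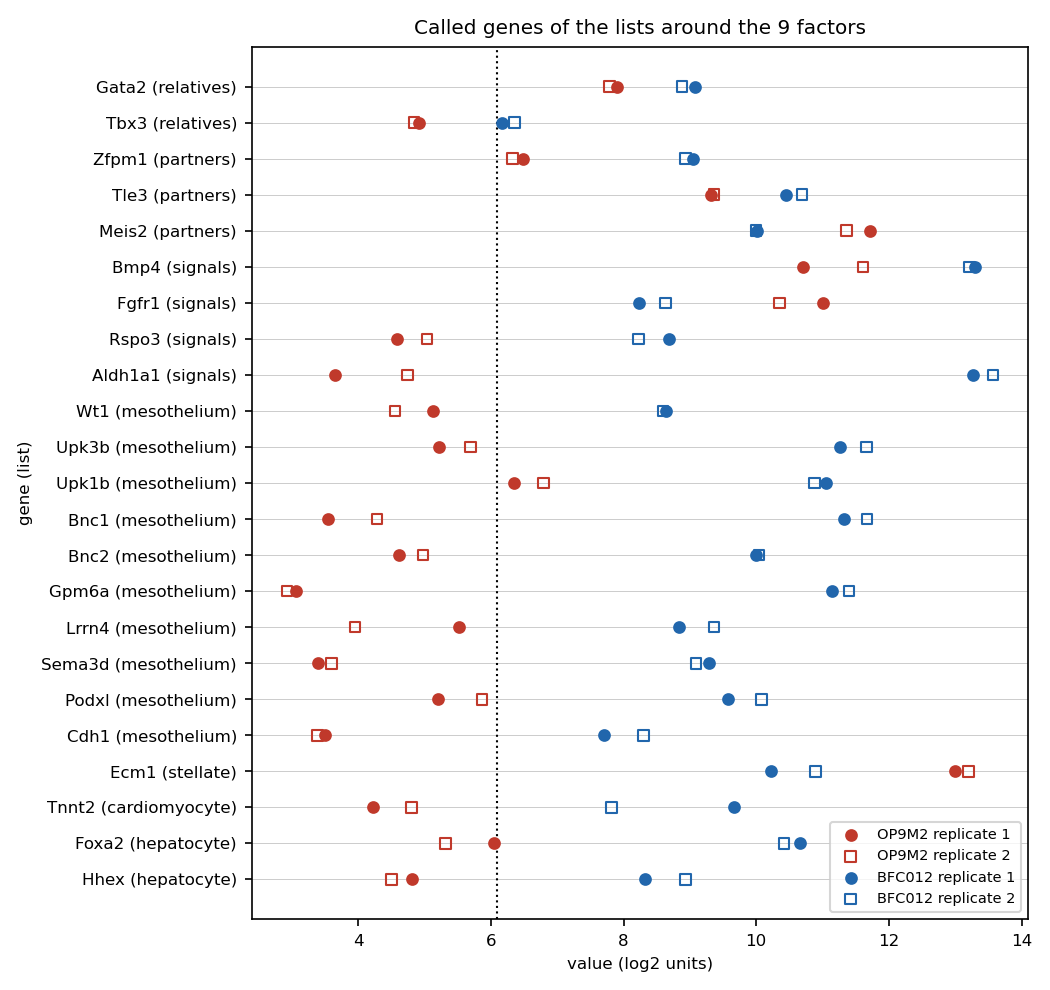
Array values, in log2 units along the horizontal axis, of every called gene in the lists of relatives, partners, signals and cell type genes (rows, list in parentheses); colours, symbols and dotted line as in the plot of the 20 probe sets. All 10 genes from the mesothelial list have both BFC012 arrays to the right, and Meis2, Fgfr1 and Ecm1 lie higher on both OP9M2 arrays.

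Cell type genes that could accompany these factors were measured beside them. Of 18 mesothelial and epicardial genes, 10 were lower in OP9M2, 0 were higher and 8 were not called (median -4.03), and 16 were above background on both BFC012 arrays against 5 on both OP9M2 arrays. The summed level of that list was 11.48 to 12.03 log2 units in OP9M2 and 14.12 to 14.36 in BFC012. Among the lower were Wt1, a zinc finger factor of mesothelium and epicardium (-3.77 ± 0.23, at least 5.74-fold), the semaphorin Sema3d (-5.69 ± 0.16, at least 8.56-fold), Podxl (-4.29 ± 0.30), Bnc2 (-5.23 ± 0.18) and the epithelial cadherin Cdh1 (-4.56 ± 0.24). Other probe sets of Podxl (-0.78) and Bnc2 (-3.35 and -0.13) were not called. Bnc1, Gpm6a, Upk3b, Upk1b and Lrrn4, with differences of -8.28 to -4.36, made up the 10. Msln, which encodes mesothelin, read 6.56 and 10.0 in OP9M2 (-2.05 ± 1.16, adjusted p = 0.443), and the other brightest genes not called were Tjp1 (-0.59 ± 0.17) and Rassf7 (-0.22 ± 0.28). The list moved with Gata4, Gata6, Tcf21, Lhx2 and Tbx20, and its part in their differences was not tested.

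No stellate cell gene was called lower alongside Tcf21 and Lhx2. Of 14 measured genes of liver stellate cells, Ecm1, which encodes a secreted matrix protein, was higher in OP9M2 (12.99 and 13.20 against 10.22 and 10.89, 2.54 ± 0.27, adjusted p = 0.0174), 0 were lower and 13 were not called (median 0.25), with a summed level of 13.68 to 14.08 in OP9M2 and 11.58 to 11.99 in BFC012. Pdgfrb (2.18 ± 0.51, adjusted p = 0.109), Des (0.27 ± 0.19) and Nes (-0.34 ± 0.16) were the brightest not called. Never above background were 4 of the 14, and 8 were above it on all arrays. The stellate markers Lrat and Reln, named after their values were seen, were among the 4. Without OP9M2 replicate 1 and without OP9M2 replicate 2, 2 and 4 of the 14 were higher.

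Heart muscle and liver genes were mainly near background in both lines. Of 19 cardiomyocyte genes, 11 were never above background and 7 were above it on all arrays. Myh6, Myh7, Actc1 and Nppa, named after their values were seen, were among the 11. The troponin gene Tnnt2 was the single one called (-4.23 ± 0.66, at least 6.29-fold, adjusted p = 0.0450). It read 4.23 and 4.81 in OP9M2 and 9.67 and 7.82 in BFC012. It was not called without OP9M2 replicate 1 or with the replicate block. Other Tnnt2 probe sets were not called (-3.64, adjusted p = 0.0753, and 0.12, adjusted p = 0.727). Tnnc1 (0.34 ± 0.23), Myl3 (0.31 ± 0.15) and Smyd1 (0.10 ± 0.13) were the brightest genes not called. The median was -0.03, and the summed level was 10.1 to 10.3 in OP9M2 and 10.4 to 10.9 in BFC012. Of 13 hepatocyte and liver bud genes, 2 regulators were lower in OP9M2. Foxa2, a forkhead factor of endoderm, read 6.05 and 5.32 against 10.66 and 10.42 (-4.86 ± 0.29, at least 21.8-fold, adjusted p = 0.00404), and the homeobox factor Hhex read 4.82 and 4.51 against 8.33 and 8.93 (-3.97 ± 0.26, at least 5.81-fold, adjusted p = 0.00523). Never above background were 8 of the 13, and 3 were above it on all arrays. Alb and Afp, which encode serum proteins of hepatocytes and were named after their values were seen, were among the 8. Ttr (0.22 ± 0.15), Apoa2 (-0.46 ± 0.13) and Hnf4a (0.00 ± 0.14) were the brightest not called. The liver list had a median of -0.02 and a summed level of 9.50 to 9.53 in OP9M2 and 11.3 to 11.4 in BFC012.

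Of 11 endothelial and 9 macrophage and blood cell genes, limma called 0 and 0, with 1 and 0 at an unadjusted p under 0.05, and 0 and 0 also with either OP9M2 array left out. The medians were -0.01 and 0.01, and the summed levels were 8.86 to 8.87 and 8.77 to 9.01 in OP9M2 and 8.70 to 8.80 and 8.75 to 8.87 in BFC012. Kdr (0.17 ± 0.17), Erg (0.00 ± 0.14) and Stab2 (0.74 ± 0.18, adjusted p = 0.115) were the brightest endothelial genes, and Csf1r (-0.04 ± 0.15), Cd68 (0.00 ± 0.36) and Lyz2 (0.19 ± 0.17) the brightest of the other list. Never above background were 8 of the 11 endothelial genes and 6 of the 9 macrophage and blood cell genes. Pecam1, Cdh5 and Ptprc, which define these cells and were named after their values were seen, were among them. Kdr (6.52 to 6.88) and Csf1r (6.89 to 7.07) were above background on all arrays of both lines. Erg, Stab2, Cd68 and Lyz2 were above it on some arrays. The fibroblast label of BFC012 was checked with genes chosen after the data were seen. Vim (13.84 and 14.01), Fn1 (13.89 and 13.76), Col1a1 (13.06 and 13.12) and Col3a1 (12.38 and 12.85) were above background on both BFC012 arrays, whereas Col1a2 was at 6.18 and 6.07 there against 14.25 and 14.14 in OP9M2, and Thy1 was not above background in either line. Pdgfra was above background on both BFC012 arrays (7.77 and 8.48) and read 12.22 and 10.76 in OP9M2 (3.37 ± 0.56, 10.3-fold, adjusted p = 0.0513, not called). With Wt1, Upk3b and Cdh1 above background as well, BFC012 is called here by its name rather than as a cell type.

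For each called factor, the 2 genes with the nearest pattern over the 4 arrays were named by the Euclidean distance in log2 units after subtraction of each gene's mean. They were Cdh11 (0.249) and Ces2g (0.348) for Tbx20, Zfp979 (0.308) and Tmem176a (0.314) for Tcf21, Myrf (0.123) and Evl (0.139) for Lhx2, Hspa12b (0.104) and Il17ra (0.132) for Gata4, and Stap2 (0.0333) and Ppp1r3b (0.206) for Gata6. For Tbx18 they were B4galt6 (0.0881) and Prickle2 (0.0936), and for Isl1 Serpinb6b (0.202) and the Iroquois factor Irx2 (0.211). With 2 lines and 4 arrays, a near pattern says little more than that the difference between the lines is of like size.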

How the data were processed

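Total RNA of irradiated OP9M2 and BFC012 cells, 2 arrays each, was hybridised to Affymetrix mouse expression arrays. The deposited values were intensities, for which the labels name RMA and the affy package (versions not given in the sources used here). They reached 2958707, and 6.31% to 6.57% were above 65535, the scanner maximum, while their natural logarithms lay between 2.06 and 14.9. The natural logarithm was taken for the log2 value that RMA gives. The authors' log base was not stated. Taking log2 of the deposited intensity instead would make each difference 1.44 times larger. After 64 control probe sets were left out, 45037 entered the fit by limma (version 3.58.1 under R version 4.3.3, 2 arrays against 2, 2 residual and 2.50 prior degrees of freedom, Benjamini-Hochberg adjustment over all). The script was checked on simulated data. Probe sets were named from the platform annotation when they had 1 gene (34945), and not when they had several (932) or none (9160). Array number limits the precision, and p-values measure only the spread between arrays labelled as biological replicates. The summed level of a list is log2 of the sum of its genes' linear values.

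The 9 factors, 9 lists around them, tests and naming rule were chosen with earlier results of these arrays known. Every probe set of a factor was named, and from each list every called gene and the 3 brightest not called, with 2 genes of nearest pattern per called factor; other genes are named as chosen after their values were seen. Lists are described by counts and medians, to be read beside the 3.56% of all genes called lower and the 2.36% called higher. Promoter windows came from RefSeq (GRCm38.p6). Alternatives were the log base, quantile normalization or median centring, a filter on dim probe sets, an intensity trend, averaged probe sets, no fold limit, each array left out, and a replicate block.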

Additional observations from a re-analysis of the deposited data

How the results depend on the processing

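No difference of the 9 factors changed sign under any alternative. The 7 called factors remained called with log2 of the deposited values, quantile normalization, median centring, the filter on dim probe sets (above background on at least 2 arrays), the intensity trend, averaged probe sets, and no limit on the difference. By limma, with all arrays, 7 factors and 2008 probe sets were called. With arrays left out, the counts ranged from 0 to 7 factors and from 0 to 4437 probe sets. They were 0 and 0 without BFC012 replicate 1 and without BFC012 replicate 2 (where 7 factors in each fit, with 4568 and 4517 probe sets, had an unadjusted p of less than 0.05), and the number of probe sets was 3210 without OP9M2 replicate 1. A lone array was then assumed to vary like the other line. The cause was not tested. With the replicate block, 4 factors and 707 probe sets were called, and Gata6 (adjusted p = 0.0556), Isl1 (0.0566) and Tbx18 (0.0948) were not. The labels give only a number, and the deviations of the first replicates from their line means correlated at -0.103 over probe sets; with the crossed pairing, chosen after seeing the data, 7 factors and 1377 probe sets were called. Over the alternatives, adjusted p ranged from 0.000682 to 0.0903 for Tbx20 and from 0.0111 to 0.235 for Tbx18. The 90th percentile of the receptor probe sets as background, 5.73 log2 units, left 8 factors above it on at least 1 array, as did the 95th. Signals near the background level limit the folds of Gata4, Tcf21, Lhx2, Tbx20 and Isl1 to lower limits.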
